A study of Homo sapiens with 12 samples.

Results

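The aldehyde dehydrogenase family was followed through 9 genes, ALDH3A1, ALDH3A2, ALDH3B1, ALDH1A3, ALDH1B1, ALDH2, ALDH7A1, ALDH9A1 and ALDH18A1. The members were found as all probes of the array annotated with 1 of these symbols, which gave 15 of 47323 probes. Each of the 9 genes passed the filter on dim probes, among 10491 genes tested, and 10 further aldehyde dehydrogenase genes on the array are described after them. Messenger RNA was read with Illumina HumanHT-12 v4 BeadChips from MCF10A, an epithelial line of the breast that forms no tumours, and from MDA-MB-231, a line of triple-negative breast cancer, here also the cancer line. Cells received 30 nM of a miRNA mimic, a synthetic RNA that acts as the mature miRNA, by lipid transfection, and RNA was taken after 48 h.

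The 12 arrays form 6 groups of 2. In each cell line 2 arrays measured 5’isomiR-140-3p, 2 measured hsa-miR-140-3p, and the control group held 1 array of mimic-ctrl1 and 1 array of mimic-ctrl2, which are different control mimics. No group was left untransfected. MCF10A cells grew in DMEM-F12 and MDA-MB-231 cells in RPMI, so cell line and medium cannot be told apart. The methods call both arrays of a mimic biological replicates without naming what separated them. The p-values measure the spread between these samples, which in the control groups includes the difference between the control mimics.

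Aldehyde dehydrogenases oxidise aldehydes to carboxylic acids with NAD+ or NADP+ as cofactor. Their substrates include retinal, lipid peroxidation products, fatty aldehydes, acetaldehyde and intermediates of amino acid breakdown. In breast tissue, high aldehyde dehydrogenase activity marks a cell fraction with stem-like properties, and ALDH1A3 and ALDH1A1 are the enzymes most often named as its source.

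The mimics differ by a shift of the 5′ end by 1 base, which moves the seed, the bases 2 to 8 that pair with target mRNAs. The sequences are shown with the seed in capitals, because that shift is what the comparisons of the mimics turn on, and both were read from the miR-140 hairpin of RefSeq on GRCh38.p14.
hsa-miR-140-3p: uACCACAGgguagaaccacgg
5’isomiR-140-3p: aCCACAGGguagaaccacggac
The canonical form is 21 bases long and lies at chr16:69933142-69933162 on the plus strand, and the 22 bases of the 5’isomiR lie at chr16:69933143-69933164. The mimics of these sequences are referred to as the canonical miRNA and the 5’isomiR. No targets were predicted for the members, since no transcript sequences were used here.

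Values are log2 normalized intensities after background correction, on which a step of 1 is a doubling. A gene was called lower where it was under 65% of its reference and higher where it lay over 65% above it, both only where limma gave an adjusted p under 0.05 (Benjamini-Hochberg adjustment over all 10491 genes). A probe was at background where it did not exceed the 0.99 quantile of 457 probes for olfactory receptors on the same array. Deposited median intensities were 107 to 109 and background levels 129 to 142 on the 12 arrays. Correlations were 0.992 to 0.995 between replicates of a mimic, and 0.981 and 0.985 between the 2 control mimics. Of 9 basal epithelial markers on the array, 8 were above background on all MCF10A arrays and 4 on all MDA-MB-231 arrays. CDH1, CDH3, KRT5 and KRT14 were at background on all MDA-MB-231 arrays. Of 12 mesenchymal markers, 7 were above background on all arrays of each line, and FN1, SPARC and ZEB1 were at background in both. Of 9 luminal markers, 5 were above background on all MCF10A arrays and 4 on all MDA-MB-231 arrays, while ESR1, PGR and TFF1 were at background in both lines. In MCF10A given 5’isomiR-140-3p, 2 of 9 basal markers were called lower and 2 higher, and 2 of 9 mesenchymal markers lower, beside 12.6% of all genes, and their part in the results was not tested. An array reads the RNA of the whole culture, so less RNA per cell and fewer cells that carry it cannot be told apart.

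The effects of the 2 mimics on the family were compared with the control mimics first. With 5’isomiR-140-3p, ALDH3A1 and ALDH3B1 were called higher in MCF10A, and ALDH3A1 was called higher and ALDH3A2 lower in the cancer line. That is 2 of 9 members in MCF10A, where 12.6% of all genes tested were called, and 2 of 9 in the cancer line, where 7.5% were. The median log2 fold change of the 9 members was -0.14 in MCF10A and -0.16 in the cancer line, against 0.01 over all genes in each line. ALDH2, which was at background on all MCF10A arrays, is included among the 9 in the counts and medians of both lines. For hsa-miR-140-3p, 0 of 9 members were called by limma in either line, where 0.858% of all genes were called in MCF10A and 1.21% in the cancer line. At an unadjusted p under 0.05, limma gave 2 members in MCF10A and 1 in the cancer line for the canonical miRNA, all under the fold threshold. Of all genes, 13.9% in MCF10A and 14.9% in the cancer line were at that level. The methods' t-test gave 1 and 0 members before adjustment and 0 in both lines after it.

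Set directly against the canonical miRNA, the 5’isomiR had ALDH3A1 and ALDH3B1 higher in MCF10A, and ALDH3A1 higher and ALDH3A2 lower in the cancer line. These were again 2 of 9 members in each line, beside 11.6% of all genes in MCF10A and 5.03% in the cancer line. Among the 9 members, all calls for a mimic thus fell in the ALDH3 class, whose members act on fatty, aromatic and lipid-derived aldehydes. These calls ran in both directions, and outside the 9 members ALDH4A1 and ALDH6A1 were also called with the 5’isomiR. The comparisons with the control mimics share their control arrays, and those with the 5’isomiR share its arrays.

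**Figure D1:**
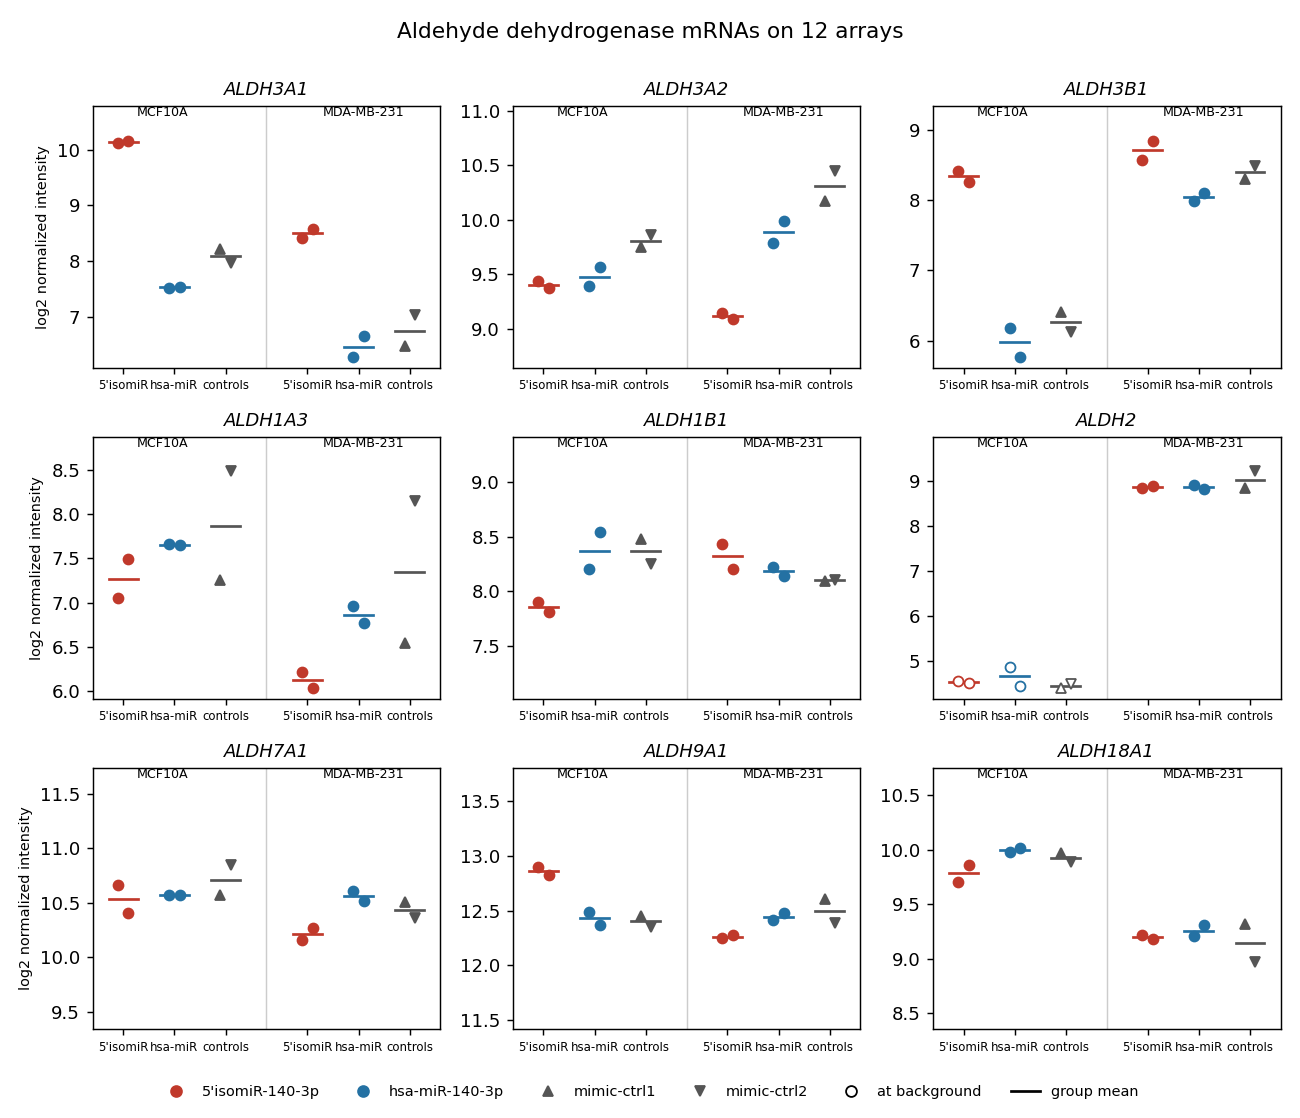
Log2 normalized intensity of the 9 members, 1 panel for each gene with its own axis, on the 2 arrays of each mimic in MCF10A (left of the grey line) and MDA-MB-231 (right), with the group mean as a bar and open symbols for arrays at background. ALDH3A1 stood highest with the 5’isomiR in both lines, at 10.11 and 10.16 in MCF10A, in MDA-MB-231 at 8.42 and 8.59, and the 2 control mimics of ALDH1A3 lay apart.

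ALDH3A1 is a cytosolic enzyme for medium-chain and aromatic aldehydes, and a known target of the aryl hydrocarbon receptor. In MCF10A it read 10.11 and 10.16 with the 5’isomiR, 7.52 and 7.55 with the canonical miRNA, 8.22 with mimic-ctrl1 and 7.97 with mimic-ctrl2. In MDA-MB-231 it read 8.42 and 8.59 with the 5’isomiR, 6.29 and 6.66 with the canonical miRNA, 6.48 with mimic-ctrl1 and 7.04 with mimic-ctrl2. The 5’isomiR arrays were the highest of their line in both lines. The canonical miRNA arrays were the lowest in MCF10A and overlapped with the controls in the cancer line.

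Against the control mimics, ALDH3A1 rose 4.11-fold with the 5’isomiR in MCF10A (log2 fold change 2.04 ± 0.19 SE, limma adjusted p = 0.00014) and 3.36-fold in the cancer line (1.75 ± 0.19, adjusted p = 0.00054). These were the 42nd and the 6th highest log2 fold changes among the 10491 genes. The effect differed between MDA-MB-231 and MCF10A by -0.29, with a 95% interval from -0.90 to 0.32 (limma adjusted p = 0.61). Against the canonical miRNA, it was 6.07-fold higher in MCF10A (2.60 ± 0.19, limma adjusted p = 5.06e-05) and 4.09-fold higher in the cancer line (2.03 ± 0.19, adjusted p = 0.000375). With the canonical miRNA it stood at 67.6% of the controls in MCF10A (limma adjusted p = 0.22) and at 82.2% in the cancer line (adjusted p = 0.55), and neither was called. All 4 calls of ALDH3A1 were kept when any of the 12 arrays was left out.

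ALDH3B1, which is membrane-associated and acts on aldehydes from lipid peroxidation, was read by 1 probe above background, while its other probe was at background on all 12 arrays. In MCF10A it read 8.41 and 8.26 with the 5’isomiR, 6.18 and 5.77 with the canonical miRNA, 6.40 with mimic-ctrl1 and 6.12 with mimic-ctrl2. In MDA-MB-231 it read 8.57 and 8.84 with the 5’isomiR, 7.98 and 8.09 with the canonical miRNA, 8.30 with mimic-ctrl1 and 8.49 with mimic-ctrl2. The 5’isomiR arrays were the highest in each line, by a wide gap in MCF10A and by a small one in the cancer line, and in MCF10A they came close to the level that MDA-MB-231 cells had with any mimic.

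In MCF10A the rise of ALDH3B1 was 4.20-fold against the controls (2.07 ± 0.17, limma adjusted p = 7.21e-05) and 5.13-fold against the canonical miRNA (2.36 ± 0.17, adjusted p = 4.99e-05). The cancer line stood at 1.24-fold against the controls (limma adjusted p = 0.30) and 1.59-fold against the canonical miRNA (adjusted p = 0.048), which is under the fold threshold. The difference between the lines in the effect of the 5’isomiR was itself tested and was -1.76 on the log2 scale (95% interval -2.31 to -1.21, limma adjusted p = 0.00397). It was called with each of the 12 arrays left out.

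ALDH3A2 is the fatty aldehyde dehydrogenase of the endoplasmic reticulum, which also oxidises the aldehyde released when sphingosine phosphate is cleaved, and whose loss causes Sjögren-Larsson syndrome. Its brightest probe, ILMN_1794825, represents the gene. In MDA-MB-231 this probe read 9.15 and 9.10 with the 5’isomiR, 9.79 and 9.99 with the canonical miRNA, 10.17 with mimic-ctrl1 and 10.44 with mimic-ctrl2. In MCF10A it read 9.44 and 9.37 with the 5’isomiR, 9.39 and 9.56 with the canonical miRNA, 9.75 with mimic-ctrl1 and 9.87 with mimic-ctrl2. In MDA-MB-231 the 3 groups did not overlap, with the 5’isomiR lowest and the controls highest. In MCF10A the mimics overlapped with each other, and both lay below the controls.

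With the 5’isomiR in MDA-MB-231, ALDH3A2 fell to 44.0% of the controls (log2 fold change -1.19 ± 0.14 SE, limma adjusted p = 0.000627) and to 58.8% of the canonical miRNA (-0.77 ± 0.14, adjusted p = 0.00901). It stood at 75.6% of the controls in MCF10A with the 5’isomiR (limma adjusted p = 0.063). With the canonical miRNA it stood at 74.8% of the controls in MDA-MB-231 (limma adjusted p = 0.19) and at 79.4% in MCF10A (adjusted p = 0.31). The call against the canonical miRNA was lost without hsa-miR-140-3p replicate 2 (-0.66), 5’isomiR-140-3p replicate 1 (-0.79) or 5’isomiR-140-3p replicate 2 (-0.74), and with the mean of all probes (-0.58). The difference between the lines in the effect of the 5’isomiR was -0.78 (95% interval -1.21 to -0.35, limma adjusted p = 0.045), and it was called in 1 of the 12 fits that leave out an array, the one without the MDA-MB-231 array of mimic-ctrl1.

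The 3 probes of ALDH3A2 did not move alike. ILMN_1794825 is annotated to one transcript of the gene, and ILMN_2401641 and ILMN_1667564 to another. ILMN_2401641 followed the brightest probe, and with the 5’isomiR against the controls it changed by -1.41 ± 0.16 in MDA-MB-231 (limma adjusted p = 0.000559 over 13705 probes) and by -0.25 ± 0.16 in MCF10A (adjusted p = 0.30). ILMN_1667564 in MCF10A read 8.23 and 8.15 with the 5’isomiR, 7.54 and 7.57 with the canonical miRNA, 6.97 with mimic-ctrl1 and 7.08 with mimic-ctrl2. On that probe the 3 groups were ordered the other way, with the 5’isomiR highest and the controls lowest. Its rise against the controls was 1.16 ± 0.19 in MCF10A (limma adjusted p = 0.00272), which was called higher, and its change in the cancer line was 0.15 ± 0.19 (adjusted p = 0.69). The difference between the lines ran the same way on the 3 probes, at -0.78, -1.15 and -1.02, and only that of ILMN_2401641 was called in the fit over probes (limma adjusted p = 0.019), against 0.0515 for ILMN_1794825 and 0.066 for ILMN_1667564.

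**Figure D2:**
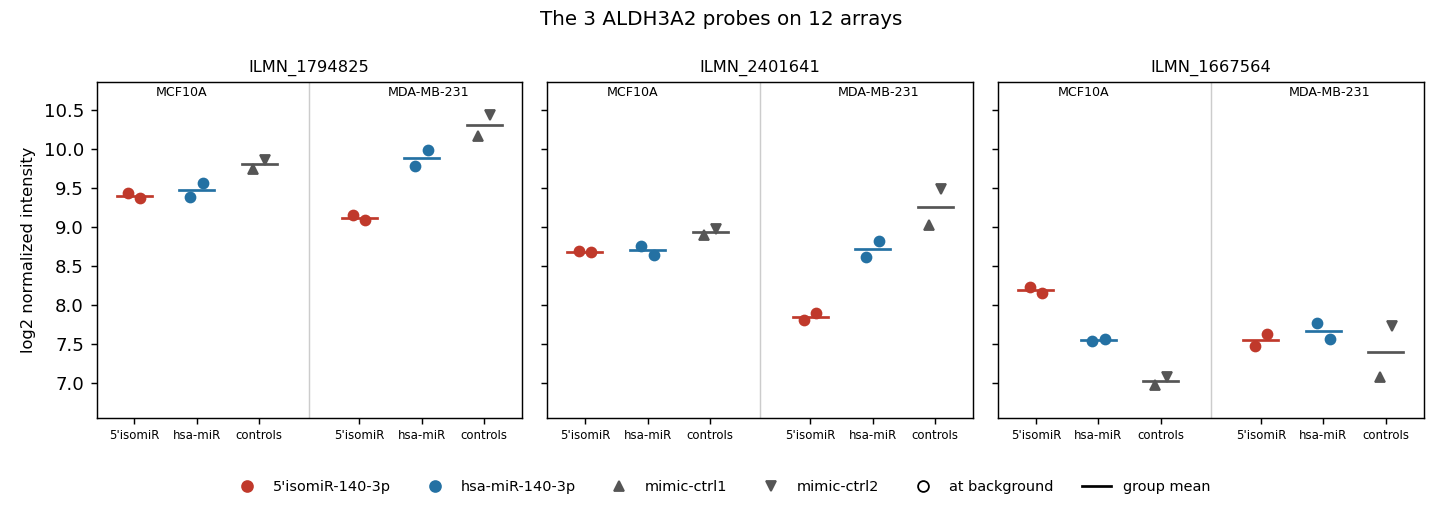
Log2 normalized intensity of the 3 ALDH3A2 probes on the 12 arrays, grouped by mimic within each cell line, with bars at the group means. In MDA-MB-231 the first 2 probes fell with the 5’isomiR by 1.19 and 1.41 on the log2 scale against the controls, whereas in MCF10A the third probe rose by 1.16.

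ALDH3A1 and ALDH3A2 are neighbours on chromosome 17, with SLC47A2 the only protein-coding gene between them in the RefSeq annotation, and they moved in opposite directions with the 5’isomiR in MDA-MB-231. ALDH3B1 lies on chromosome 11. After subtracting the mean of each line, the log2 values of ALDH3A1 and ALDH3B1 correlated at r = 0.88 over the 12 arrays, and those of ALDH3A1 and ALDH3A2 at r = -0.60. The arrays share their mimics, so these coefficients describe the group means as well as the spread within groups.

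**Figure D3:**
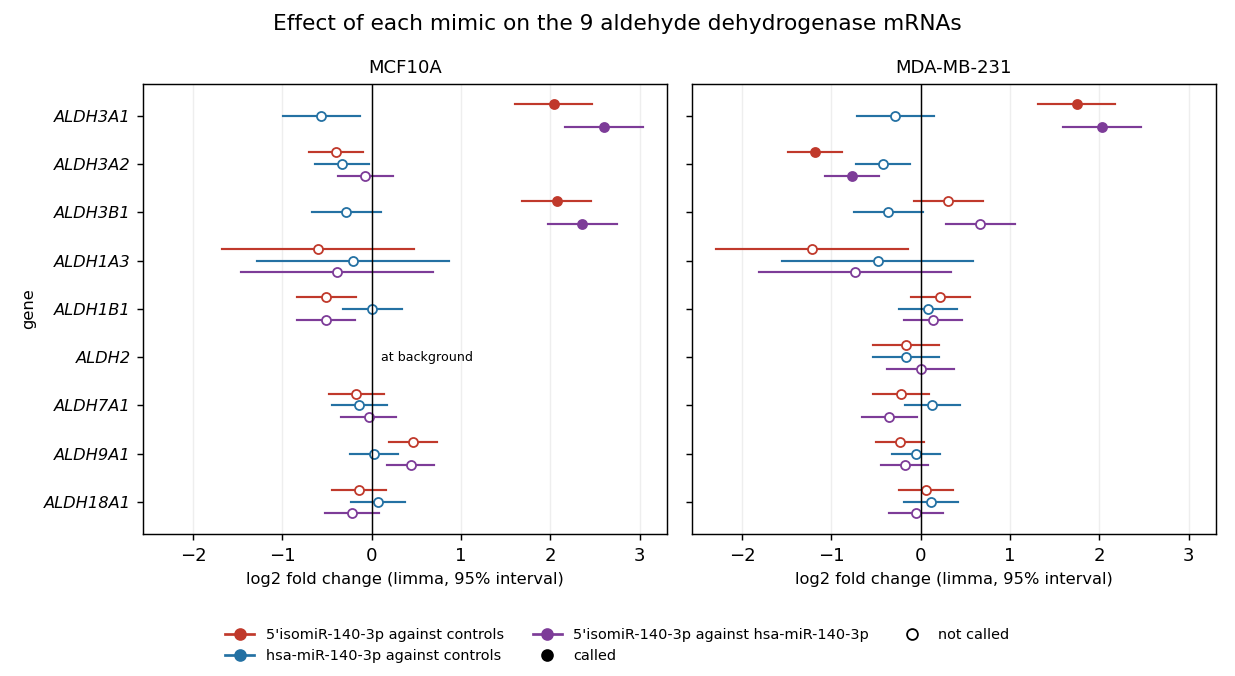
Log2 fold changes of the 9 members with 95% intervals from limma, in MCF10A (left) and MDA-MB-231 (right), for the 5’isomiR and the canonical miRNA against the control mimics and for the 2 mimics against each other, filled where called, with no point for ALDH2 in MCF10A, where it was at background. Against the controls the 5’isomiR stood at 2.04 for ALDH3A1 and 2.07 for ALDH3B1 in MCF10A, and the widest intervals were those of ALDH1A3.

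ALDH1A3 oxidises retinal to retinoic acid and is the member most often tied to aldehyde dehydrogenase activity in breast cancer cells. Its brighter probe, ILMN_2139970, read 7.05 and 7.49 with the 5’isomiR in MCF10A, 7.66 and 7.65 with the canonical miRNA, 7.25 with mimic-ctrl1 and 8.48 with mimic-ctrl2. In MDA-MB-231 it read 6.21 and 6.04 with the 5’isomiR, 6.96 and 6.76 with the canonical miRNA, 6.54 with mimic-ctrl1 and 8.14 with mimic-ctrl2. The array of mimic-ctrl2 was the highest of its line in both lines. Both 5’isomiR arrays lay below both canonical miRNA arrays in each line, and mimic-ctrl1 lay below the canonical miRNA arrays as well.

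Because ALDH1A3 was picked for the comparison of the control mimics with its result known, that comparison is a description. With mimic-ctrl1 it stood at 42.8% of mimic-ctrl2 in MCF10A (log2 difference -1.23) and at 33.0% in the cancer line (-1.60), with 1 array of each. Its second probe, ILMN_1807439, gave 44.5% in MCF10A and 30.1% in the cancer line. In MCF10A 30 of the 10491 genes were as low or lower with mimic-ctrl1, in the cancer line 16 were, and 4 were so in both, ALDH1A3 included. In a fit with 1 term for mimic-ctrl1 against mimic-ctrl2 over both lines, which called 2.48% of all genes, ALDH1A3 stood at -1.41. Its call in that fit is no test either, since it was picked with this result known. Without ALDH2, at background in MCF10A, the other members ranged in that fit from -0.19 for ALDH3A2 to 0.22 for ALDH18A1.

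The spread between the control mimics entered every comparison of ALDH1A3, whose standard error was 0.48 against 0.12 to 0.19 for the other members. With the 5’isomiR it averaged 43.0% of the control mimics in MDA-MB-231 (-1.22 ± 0.48, limma adjusted p = 0.14) and 66.0% in MCF10A (-0.60 ± 0.48, adjusted p = 0.42). Set against mimic-ctrl1 alone, the 5’isomiR mean was -0.42 in MDA-MB-231 and 0.01 in MCF10A, and against mimic-ctrl2 alone it was -2.02 and -1.21. Without the MDA-MB-231 array of mimic-ctrl1 the change of -2.02 was called lower (limma adjusted p = 0.0146), and without that of mimic-ctrl2 the change of -0.42 was not (adjusted p = 0.58). With the canonical miRNA, ALDH1A3 was on average 0.32 above mimic-ctrl1 and 1.28 below mimic-ctrl2 in MDA-MB-231, and in MCF10A 0.40 above and 0.83 below.

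The comparison of both mimics does not use the control arrays in its means. There ALDH1A3 with the 5’isomiR stood at 60.0% of the canonical miRNA in MDA-MB-231 (-0.74 ± 0.48, limma adjusted p = 0.42) and at 76.4% in MCF10A (-0.39 ± 0.48, adjusted p = 0.63). With the 8 arrays of both mimics fitted alone, the difference in MDA-MB-231 was called lower (limma adjusted p = 0.0235), and that in MCF10A was not (adjusted p = 0.11). A fit that gives the control mimics a term of their own, chosen after the data were seen, gave adjusted p = 0.0243 for that difference in MDA-MB-231, and 0.00192 for the 5’isomiR against the controls.

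**Figure D4:**
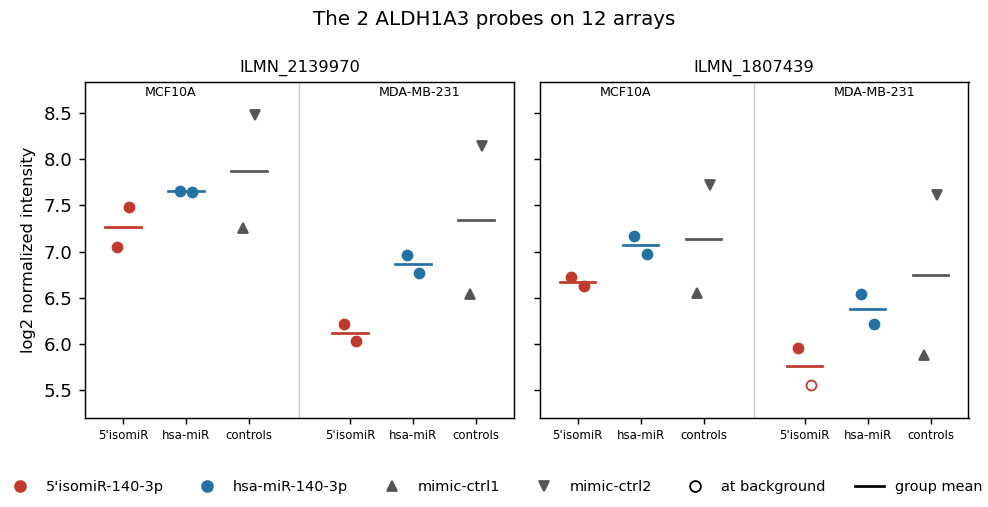
Log2 normalized intensity of the 2 ALDH1A3 probes on the 12 arrays, with mimic-ctrl1 and mimic-ctrl2 as upward and downward triangles, bars at the group means and an open symbol for an array at background. On both probes mimic-ctrl2 was the highest array of its line, at 8.48 and 7.72 in MCF10A, and in MDA-MB-231 at 8.14 and 7.62.

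ALDH2, the mitochondrial enzyme that clears acetaldehyde, was seen in 1 of the cell lines. It was at background on all 6 MCF10A arrays, at 4.40 to 4.87, so no fold between mimics is given there. In MDA-MB-231 it read 8.85 and 8.90 with the 5’isomiR, 8.91 and 8.83 with the canonical miRNA, 8.86 with mimic-ctrl1 and 9.22 with mimic-ctrl2. The mimics overlapped with each other and with mimic-ctrl1. The change with the 5’isomiR was -0.16 (95% interval -0.54 to 0.21) and that with the canonical miRNA was -0.16 (-0.53 to 0.21).

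ALDH1B1, a mitochondrial relative of ALDH2 that also takes acetaldehyde, read 7.90 and 7.81 with the 5’isomiR in MCF10A, 8.20 and 8.54 with the canonical miRNA, 8.48 with mimic-ctrl1 and 8.25 with mimic-ctrl2. In MDA-MB-231 it ranged from 8.09 to 8.43 over the 6 arrays. The 5’isomiR arrays of MCF10A were the lowest of their line. They stood at 70.3% of the controls (-0.51 ± 0.15, limma adjusted p = 0.036) and at 70.1% of the canonical miRNA (adjusted p = 0.037), which passes the test but not the fold threshold. On the dimmer probe ILMN_1675398 both 5’isomiR arrays of MCF10A were at background, at 5.34 and 5.32, against 6.55 with mimic-ctrl1 and 6.21 with mimic-ctrl2, and that difference was called lower (limma adjusted p = 0.00319). With the mean of both probes the gene was called lower (-0.78, limma adjusted p = 0.00744), as it was without the MCF10A array of mimic-ctrl2 (-0.62, adjusted p = 0.044).

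The other members act on amino acid and amine intermediates. ALDH9A1, which oxidises trimethylaminobutyraldehyde in carnitine synthesis, read 12.90 and 12.82 with the 5’isomiR in MCF10A, 12.49 and 12.37 with the canonical miRNA, 12.45 with mimic-ctrl1 and 12.35 with mimic-ctrl2. MDA-MB-231 cells gave 12.25 and 12.28 with the 5’isomiR, 12.41 and 12.48 with the canonical miRNA, 12.60 with mimic-ctrl1 and 12.38 with mimic-ctrl2. With the 5’isomiR its arrays were the highest in MCF10A and the lowest in the cancer line. The change against the controls was 0.46 ± 0.12 in MCF10A (limma adjusted p = 0.023, under the fold threshold) and -0.23 ± 0.12 in the cancer line (adjusted p = 0.25). The difference between the lines was -0.69 (95% interval -1.07 to -0.32, limma adjusted p = 0.043). It was called in 1 of the 12 fits that leave out an array, the one without the MDA-MB-231 array of mimic-ctrl2.

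ALDH7A1, also called antiquitin, oxidises the semialdehyde formed in lysine breakdown, and ALDH18A1 makes the glutamate semialdehyde from which proline and ornithine are built. ALDH7A1 lay between 10.16 and 10.84 on all 12 arrays, and ALDH18A1 between 9.71 and 10.02 in MCF10A and between 8.97 and 9.32 in the cancer line. Neither was called for a mimic. The changes of ALDH7A1 with the 5’isomiR were -0.17 in MCF10A (95% interval -0.48 to 0.13) and -0.22 in the cancer line (-0.53 to 0.09), and its second probe gave -0.24 and -0.20. Those of ALDH18A1 were -0.14 (-0.45 to 0.16) and 0.06 (-0.24 to 0.36).

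Whether the effect of a mimic differed between the cell lines was tested for each member. For the 5’isomiR, 3 of 9 members were called, ALDH3B1, ALDH3A2 and ALDH9A1, beside 5.47% of all genes, and the change was lower in MDA-MB-231 for the 3. For the canonical miRNA, limma called 0 of 9 members and 0% of all genes, while at an unadjusted p under 0.05 it gave 0 members and 833 of all genes. The methods' t-test was not run on these differences. Without ALDH2, which was at background in MCF10A, they ranged from -0.27 for ALDH1A3 to 0.28 for ALDH3A1.

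The baseline of the family was compared between MDA-MB-231 and MCF10A with the control mimics. In MDA-MB-231, 2 members were called higher and 2 lower, 4 of 9 in all, beside 40.4% of all genes. ALDH2 was at least 10.7-fold higher, the bound set by the background level of MCF10A. It passed the filter on dim probes only through its MDA-MB-231 arrays, so its call was favoured by the filter and no p is given. ALDH3B1 was 4.39-fold higher (limma adjusted p = 4.39e-06). ALDH3A1 stood at 39.4% of MCF10A (limma adjusted p = 0.00023) and ALDH18A1 at 58.0% (adjusted p = 0.000716). ALDH3A2 was 1.41-fold higher in MDA-MB-231 (limma adjusted p = 0.0102), under the fold threshold. Leaving out the MDA-MB-231 array of mimic-ctrl2 ended the call of ALDH18A1 (-0.61) and brought one for ALDH1A3 (-1.32, limma adjusted p = 0.024), which with both arrays was at -0.52 (adjusted p = 0.37). ALDH3B1 thus rose with the 5’isomiR in the line in which its level with the control mimics was lower.

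Of the 10 other aldehyde dehydrogenase genes on the array, 7 were not tested because no probe of theirs passed the filter. Of these, ALDH1A1, ALDH1A2, ALDH1L1, ALDH3B2, ALDH5A1 and ALDH8A1 were at background on every array, and ALDH1L2 was above it on 1 array, that of mimic-ctrl2 in MCF10A. ALDH1A1, the other retinal dehydrogenase tied to stem-like breast cells, was thus not detected in either line. ALDH4A1, the mitochondrial enzyme that turns the semialdehyde of proline breakdown into glutamate, was called lower with the 5’isomiR in both lines. In MDA-MB-231 it read 5.96 and 5.74 with the 5’isomiR, 6.48 and 6.33 with the canonical miRNA, 6.59 with mimic-ctrl1 and 6.64 with mimic-ctrl2, which is 58.9% of the controls (limma adjusted p = 0.0148). In MCF10A it was at background with the 5’isomiR, at 5.19 and 5.45, against 6.31 with mimic-ctrl1 and 5.95 with mimic-ctrl2, and the controls were at least 1.44-fold higher (limma adjusted p = 0.0069). That bound alone does not reach the fold threshold, so the call in MCF10A rests on values at background. Its other 3 probes were at background on every array.

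ALDH6A1, which acts in valine and thymine breakdown, read 7.04 and 6.56 with the 5’isomiR in MCF10A, 5.56 and 5.57 with the canonical miRNA, 5.99 with mimic-ctrl1 and 6.13 with mimic-ctrl2. The 5’isomiR arrays were the highest and the canonical miRNA arrays, of which replicate 1 was at background, the lowest. Its rise was 1.66-fold against the controls (limma adjusted p = 0.0107), just over the fold threshold, and 2.34-fold against the canonical miRNA (adjusted p = 0.000833). The second probe of the gene, ILMN_2096985, was above background on 6 of the 12 arrays. In MDA-MB-231, where no mimic brought a call, ALDH6A1 read 8.07 and 8.03 with the 5’isomiR, 8.13 with mimic-ctrl1 and 8.29 with mimic-ctrl2, and the difference between the lines for the 5’isomiR was -0.89 (limma adjusted p = 0.0495). Like ALDH3B1, it was higher in MDA-MB-231 than in MCF10A with the control mimics, by 4.43-fold (adjusted p = 2.2e-06). ALDH16A1, a member with little known of its substrate, ranged from 6.56 to 7.58 over the 12 arrays and was not called for a mimic.

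Genes of the pathways around the members were then read for each mimic against the controls. In the retinoic acid pathway, which ALDH1A3 feeds, 15 of 24 listed genes were tested. With the 5’isomiR in MCF10A, 2 of the 15 were called higher and 1 lower, beside 12.6% of all genes called in either direction, and in the cancer line 1 was higher and 1 lower, beside 7.5%. RARRES1, a gene induced by retinoids, read 9.12 and 9.01 with the 5’isomiR in MCF10A against 7.21 with mimic-ctrl1 and 6.36 with mimic-ctrl2, a 4.84-fold rise (limma adjusted p = 0.000219), and was at background in the cancer line. DHRS3, which reduces retinal back to retinol, rose 2.83-fold in MCF10A (limma adjusted p = 0.000769) and 1.66-fold in the cancer line (adjusted p = 0.040). CYP26B1, which breaks down retinoic acid, fell to 64.5% in MCF10A (limma adjusted p = 0.027). TGM2, a transglutaminase that retinoic acid induces, fell to 61.6% with the 5’isomiR in MDA-MB-231 (limma adjusted p = 0.033). It rose 2.23-fold with the canonical miRNA in MCF10A (limma adjusted p = 0.0235), the 1 call of this list for that mimic, beside 0.858% of all genes there. The arrays of both mimics lay above the controls in MCF10A and below them in MDA-MB-231. For the 5’isomiR that difference between the lines was -1.35 (limma adjusted p = 0.0155). The genes of retinoid handling did not move in 1 direction, and the list's median log2 fold change with the 5’isomiR was 0.10 in MCF10A and -0.02 in the cancer line.

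In proline and ornithine metabolism, around ALDH18A1, 8 of 12 listed genes were tested, ALDH4A1 among them. With the 5’isomiR 1 was called higher and 3 lower in MCF10A, where 12.6% of all genes were called, and 1 was lower in the cancer line, where 7.5% were. PRODH, which starts proline breakdown in mitochondria, read 6.96 and 6.66 with the 5’isomiR in MCF10A and was at background with the canonical miRNA and the controls. It was at least 2.30-fold above the controls. PRODH passed the filter on dim probes only through the 5’isomiR arrays of MCF10A, so its call was favoured by the filter and no p is given. GLUD1, which turns glutamate into oxoglutarate, fell to 57.5% in MCF10A (limma adjusted p = 0.00258), and is named outside the rule for naming genes, after its values were seen. PYCR3, which completes proline synthesis, was at background with the 5’isomiR in MCF10A, and the controls were at least 1.62-fold higher (limma adjusted p = 0.042). ARG2, the mitochondrial arginase, rose 1.99-fold with the canonical miRNA in MDA-MB-231 (limma adjusted p = 0.0494). It was the 1 call for that mimic in the list, beside 1.21% of all genes in that line. The median of the list with the 5’isomiR was -0.47 in MCF10A and -0.08 in the cancer line. PRODH and ALDH4A1, the consecutive steps of proline breakdown, thus moved in opposite directions in MCF10A.

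Among genes of fatty aldehyde and sphingolipid aldehyde metabolism, around ALDH3A2, 9 of 10 were tested. Of the 9, 1 was called higher and 3 lower with the 5’isomiR in MCF10A, beside 12.6% of all genes, and 1 lower in the cancer line, beside 7.5%. FAR1, which reduces fatty acyl-CoA to fatty alcohol for ether lipids, was called lower with the 5’isomiR in both lines. It read 7.46 and 7.48 with the 5’isomiR in MCF10A against 8.62 with mimic-ctrl1 and 8.75 with mimic-ctrl2, and 5.84 and 5.87 in the cancer line against 6.81 with mimic-ctrl1 and 7.44 with mimic-ctrl2. That was 43.1% of the controls in MCF10A (limma adjusted p = 0.00145) and 41.3% in the cancer line (adjusted p = 0.00209). The other calls with the 5’isomiR were in MCF10A, where PHYH, the peroxisomal phytanoyl-CoA hydroxylase, rose 1.78-fold (limma adjusted p = 0.00338). There FAR2, a second fatty acyl-CoA reductase, was at background with the 5’isomiR and at least 1.496-fold higher with the controls (limma adjusted p = 0.0126). SPHK1, which makes sphingosine phosphate, was at background there with the 5’isomiR and also with the canonical miRNA. It was at least 1.23-fold higher with the controls than with the 5’isomiR (limma adjusted p = 0.00513). Neither the bound of FAR2 nor that of SPHK1 reaches the fold threshold, so both calls rest on values at background. With the canonical miRNA the list held 1 call, in MDA-MB-231, where 1.21% of all genes were called. It was AGPS, an enzyme of ether lipid synthesis, which fell to 64.0% (limma adjusted p = 0.0321). AGPS is named because it was the only one, after its values were seen. The list's median with the 5’isomiR was -0.19 in MCF10A and -0.14 in the cancer line.

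The list of lysine, choline, carnitine and polyamine steps, around ALDH7A1 and ALDH9A1, had 11 of 14 genes tested. The 5’isomiR gave 2 higher and 1 lower call in MCF10A, beside 12.6% of all genes, and 1 higher and 2 lower in the cancer line, beside 7.5%. BBOX1, which follows ALDH9A1 in carnitine synthesis, read 7.05 and 6.87 with the 5’isomiR in MCF10A and was at background on the other 10 arrays. It was at least 2.54-fold above the controls. BBOX1 passed the filter on dim probes only through the 5’isomiR arrays of MCF10A, so its call was favoured by the filter and no p is given. MAOA, a monoamine oxidase that yields aldehydes, rose 1.68-fold in MCF10A (limma adjusted p = 0.00782). SMS, spermine synthase, fell to 50.8% in MCF10A (limma adjusted p = 0.00138) and to 49.7% in the cancer line (adjusted p = 0.00219). SAT1, which acetylates polyamines for breakdown, rose 1.81-fold in MDA-MB-231 (limma adjusted p = 0.00577), where PAOX, the next enzyme, fell to 64.9% (adjusted p = 0.023). PAOX is named outside the rule for naming genes, after its values were seen. The list's median with the 5’isomiR was -0.21 in MCF10A and -0.08 in the cancer line. With the canonical miRNA, limma called 0 of the 11 genes in either line, beside 0.858% of all genes in MCF10A and 1.21% in the cancer line. At an unadjusted p under 0.05 limma gave 2 in MCF10A, beside 13.9% of all genes, and 1 in the cancer line, beside 14.9%. The methods' t-test gave 3 and 0 before adjustment.

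Of 10 genes tied to the aryl hydrocarbon receptor, which is known to induce ALDH3A1, 7 were tested. CYP1B1, a cytochrome P450 under its control, read 11.55 and 11.85 with the 5’isomiR in MCF10A against 10.96 with mimic-ctrl1 and 10.45 with mimic-ctrl2, a 1.99-fold rise (limma adjusted p = 0.00767). It read 9.92 and 9.49 in MDA-MB-231 against 9.90 with mimic-ctrl1 and 9.88 with mimic-ctrl2, and it was not called (-0.19, limma adjusted p = 0.62). With the 5’isomiR CYP1B1 was the 1 of the 7 called in MCF10A, beside 12.6% of all genes, and limma called 0 in the cancer line, beside 7.5%. There 1 was at an unadjusted p under 0.05 in limma, beside 26.5% of all genes, and the methods' t-test likewise gave 1. With the canonical miRNA limma called 0 in either line, beside 0.858% of all genes in MCF10A and 1.21% in the cancer line. At an unadjusted p under 0.05 limma gave 1 in MCF10A, beside 13.9% of all genes, and 4 in the cancer line, beside 14.9%. The methods' t-test gave 0 and 1 before adjustment. The list's median with the 5’isomiR was 0.32 in MCF10A and -0.11 in the cancer line, and ALDH3A1, which was not in the list, rose in both lines.

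The genes most like ALDH3A1 over the 12 arrays, by Pearson correlation of log2 values after subtracting the mean of each cell line, were COQ5 (r = 0.98), UGGT2 (0.97), RNF149 (0.97), SGK1 (0.97) and ITGA10 (0.96). Of these, ITGA10, an integrin subunit, was called higher with the 5’isomiR in both lines, by 1.95 in MCF10A and by 1.19 in the cancer line on the log2 scale. COQ5, a methyltransferase of coenzyme Q synthesis, changed by 0.71 in MCF10A (limma adjusted p = 0.00164) and by 0.44 in the cancer line (adjusted p = 0.028), and these passed the test without passing the fold threshold. The genes most like ALDH1A3 were WASHC5 (r = 0.97), MPC1 (0.95), MIR373 (0.95), ABI1 (0.95) and RAB10 (0.93). None of these was called for the 5’isomiR against the controls. Each was lower with mimic-ctrl1 than with mimic-ctrl2 in both lines, by 1.14 and 1.25 for the MIR373 probe and by 0.86 and 0.82 for ABI1, a regulator of actin. The 5 genes of each set were picked from all genes tested by this same measure, and their correlations are a description.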

How the data were processed

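RNA of 12 samples, 2 cell lines by 3 mimic groups of 2, was hybridised to Illumina HumanHT-12 v4 BeadChips. The deposited table holds the authors' summarised probe intensities, which were neither background-corrected nor normalized, for 47323 probes. A further 24 columns of a second deposited table could not be matched to a sample by name and were not used. No aligner or genome build applies, and the files hold no control probes or detection p-values. In R 4.3.3 with limma 3.58.1, intensities were background-corrected by normexp, with 457 olfactory receptor probes in the place of negative controls and an offset of 16, quantile normalized over 12 arrays and put on the log2 scale. Probes above the 0.99 quantile of those 457 probes on at least 2 arrays were kept, which left 13705 with a gene name, and the brightest probe represented each of 10491 genes. Gene names came from the platform annotation, updated through RefSeq for 30072 probes.

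The 6 group means were fitted with lmFit and eBayes (6 residual degrees of freedom, 3.79 prior), and adjusted p-values follow Benjamini-Hochberg over all genes. The threshold of 65% for lower genes follows the study's methods, and that of over 65% above for higher genes comes from elsewhere in the study's text. Where a group was at background, the bound is its mean background level or, if higher, its own signal. Standard errors and intervals are from the same fit, and the number of arrays limits their precision. The fit was tested on simulated data.

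The members and gene lists were chosen with earlier results of these data known. Up to 4 called genes a list were named, by the size of their log2 fold change against the control mimics, and the 5 genes most like ALDH3A1 and ALDH1A3. Same-numbered replicates of the 5’isomiR and the canonical miRNA did not deviate together from their group means (correlation over genes 0.02 in MCF10A and -0.02 in MDA-MB-231), so no block was used. Alternatives covered background correction, offset, scaling, the filter on dim probes, the choice of probe, the moderated variance, the methods' t-test, the fold threshold, a replicate block, each line alone, each array left out and, chosen after seeing the data, a term for the control mimics.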

Additional observations from a re-analysis of the deposited data

Results flagged for a closer look

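In the family, 3 results differed between the cell lines by a test of the difference itself, that is 3 of 9 members beside 5.47% of all genes. The effect of the 5’isomiR against the control mimics was lower in MDA-MB-231 than in MCF10A by -1.76 on the log2 scale for ALDH3B1 (limma adjusted p = 0.00397), with a change of 0.31 in MDA-MB-231 and of 2.07 in MCF10A. For ALDH3A2 the difference was -0.78 (limma adjusted p = 0.045), with -1.19 in MDA-MB-231 and -0.40 in MCF10A. For ALDH9A1 it was -0.69 (limma adjusted p = 0.043), with -0.23 in MDA-MB-231 and 0.46 in MCF10A. In the 12 fits that each left out 1 array, ALDH3B1 was called in 12, ALDH3A2 in 1 and ALDH9A1 in 1. ALDH3B1 also had the higher baseline in MDA-MB-231, whose part in the difference was not tested.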

How the results depend on the processing

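Of 2250 values recomputed for the members and their counts, 2187 kept their side of the threshold, of which 59 that were not called changed sign and the others kept their direction, 47 lost a call, 16 gained one and 0 called values reversed. The methods' t-test after Benjamini-Hochberg adjustment, with 2 residual degrees of freedom, called 0 members for the 5’isomiR against the controls and against the canonical miRNA in both lines, and 1 for the cell line baseline. Without the fold threshold, 4 members were called in MCF10A for the 5’isomiR against the controls and 4 against the canonical miRNA. The mean of all probes left 1 call for the 5’isomiR against the canonical miRNA in MDA-MB-231, and leaving out 1 array gave 1 to 2. For the difference between the lines in the effect of the 5’isomiR, the count was 1 with no filter on dim probes, 1 with a looser filter and 1 with a replicate block, and leaving out 1 array gave 1 to 2, where ALDH3B1 was always called (limma adjusted p 0.00497 to 0.0229). For mimic-ctrl1 against mimic-ctrl2 the only member called was ALDH1A3, picked for that comparison with its result known, so the call is a description. It was lost when 1 MDA-MB-231 control array was left out (-1.23). The replicate block brought a call of ALDH1A3 for the 5’isomiR against the canonical miRNA in MDA-MB-231 (limma adjusted p = 0.040), ended those of ALDH3A2 (0.18) and ALDH9A1 (0.15) between the lines, and changed no other call. Median scaling also ended that of ALDH3A2 (0.071). Where an arm was left with 1 array, that array was assumed to vary like the other groups. The causes of these changes were not tested.

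With 2 arrays a group and a standard error of 0.48, a change of -1.22 of ALDH1A3 in MDA-MB-231 with the 5’isomiR passed the fold threshold but not the adjusted p (limma adjusted p = 0.137). Its size depended on the control, at -0.42 against mimic-ctrl1 and -2.02 against mimic-ctrl2. Signals at background have no order. The fit of each line alone was not run for comparisons that need both lines or the control mimics against each other, the t-test was not run for the differences between lines or the control mimics, and no replicate block was added for the control mimics, which that comparison already pairs within each line.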
